A study of Mus musculus with 26 samples.

Results

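The genes described here are mostly the protein subunits of the respiratory chain and ATP synthase, with the assembly factors that carry subunit-like names. They were taken by name from the genes annotated as protein coding: names that start with mt-, Nduf, Sdha to Sdhd, Uqcr, Cox4 to Cox8 or Atp5, ignoring case. The rule uses no measured value. Among human genes it also took ATP5IF1, an inhibitor of ATP synthase, and the readthrough genes ATP5MF-PTCD1 and NDUFC2-KCTD14, which are counted here with the subunits. The rule took 110 of 40481 mouse genes, of which 13 are encoded in mitochondrial DNA and 97 in the nucleus, and 115 of 55093 human genes, of which 13 are mitochondrial and 102 nuclear.

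The RNA of these genes was counted in 3 systems in which Fgfr1op, a gene for a centrosomal protein also called FOP, was deleted or knocked down. Small intestinal spheroids, which are epithelial cultures in Matrigel with L-WRN conditioned medium, came from 4 Fgfr1op KO and 4 WT mice, and all of them had received hydroxytamoxifen at 250 nM and were taken on day 3. Crypt-enriched small intestine came from Fgfr1op KO and WT mice that had all received tamoxifen, 6 libraries per genotype, 3 on day 6 and 3 on day 9. Caco-2 cells, an established human line from a colorectal adenocarcinoma, carried a doxycycline-inducible hairpin, shFgfr1op or a non-targeting scramble, with 3 libraries each on day 3 after doxycycline. The recombinase and its promoter are not named in the sources used here. Separate cultures are not stated for the Caco-2 libraries, so their p-values cover only the spread among these libraries, which may be technical.

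The respiratory chain sits in the inner mitochondrial membrane. Complex I takes electrons from NADH and complex II takes them from succinate, complex III passes them to cytochrome c, complex IV hands them to oxygen, and ATP synthase, or complex V, uses the resulting proton gradient to make ATP. Mitochondrial DNA encodes a small set of core subunits of every complex except complex II, which is wholly nuclear encoded, and it is transcribed as long precursors that are cut into single RNAs. In the intestinal epithelium mitochondrial respiration is known to differ between stem cells and absorptive cells.

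Library totals ran from 37281821 counts in Caco-2 to 103352863 counts in crypts. Fgfr1op itself was lower in all 3 systems. It averaged 17.4 ± 1.98 CPM in KO spheroids, against 23.2 ± 1.12 CPM in WT spheroids (SD, n = 4 each), 21.1 ± 5.22 CPM in KO crypts and 32.9 ± 6.27 CPM in WT crypts (SD, n = 6 each), and 6.82 ± 0.414 CPM with shFgfr1op and 15.7 ± 0.208 CPM with scramble (SD, n = 3 each). CPM is a gene's count as a share of the scaled library total. The adjusted p-values were 0.117, 0.0261 and 1.65e-14 by edgeR's quasi-likelihood test with Benjamini-Hochberg adjustment, so the drop in spheroids did not pass the threshold of 0.05. The columns of the crypt table carry a genotype, a number from 1 to 6 and a further 4-digit number, but no day. Days 6 and 9 were therefore analysed together, and what the numbers mean was not resolved. By the 4-digit number WT column 3 falls among columns 4 to 6, while the column ranges used here follow the number from 1 to 6. KO columns 4 to 6 stood apart from the other 9 crypt libraries. They lay at 102 to 124 on the first principal component, which held 56.0% of the variance, and the others lay at -64.4 to 5.16. Counts of calls and medians in crypts are therefore given over all 12 libraries, within columns 1 to 3, within columns 4 to 6, or without KO columns 4 to 6.

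The 4 subunits of succinate dehydrogenase (complex II) were the 1 class in which every member was called in both crypts and Caco-2, so their promoters are shown. Each runs from 250 bases before to 50 bases after the gene's start, 5′ to 3′ on the gene's strand, from RefSeq, build GRCm38.p6, and Sdhc is named only. Capitals mark a motif of NRF1, spelled GCGCA, any base, GCGC, and CCGGAAG, a motif of the ETS family that includes GABP, searched on both strands. NRF1 and GABP are known regulators of nuclear genes for respiratory subunits.
Sdha, chr13:74350191-74350490, minus strand: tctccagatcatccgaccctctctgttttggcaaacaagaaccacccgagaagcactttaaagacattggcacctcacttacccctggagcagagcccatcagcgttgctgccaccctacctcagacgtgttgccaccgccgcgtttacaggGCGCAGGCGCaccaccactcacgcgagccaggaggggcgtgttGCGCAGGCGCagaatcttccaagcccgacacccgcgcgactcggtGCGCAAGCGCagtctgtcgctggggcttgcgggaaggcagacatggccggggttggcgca
Sdhb, chr4:140961021-140961320, plus strand: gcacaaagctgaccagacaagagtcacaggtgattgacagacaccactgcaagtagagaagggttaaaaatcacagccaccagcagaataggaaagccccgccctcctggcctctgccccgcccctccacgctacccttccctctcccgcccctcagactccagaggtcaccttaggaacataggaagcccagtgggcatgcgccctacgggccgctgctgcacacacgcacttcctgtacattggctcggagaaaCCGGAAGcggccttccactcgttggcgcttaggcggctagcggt
Sdhd, chr9:50603800-50604099, minus strand: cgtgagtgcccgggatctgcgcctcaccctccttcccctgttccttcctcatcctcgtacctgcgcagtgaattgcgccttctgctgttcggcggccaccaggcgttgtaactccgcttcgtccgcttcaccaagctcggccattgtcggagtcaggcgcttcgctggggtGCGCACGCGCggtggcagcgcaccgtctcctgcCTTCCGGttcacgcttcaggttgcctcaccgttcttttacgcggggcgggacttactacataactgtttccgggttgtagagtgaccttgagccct
Sdha held 3 NRF1 matches, at bases 153 to 162, 196 to 205 and 241 to 250. Sdhb held 1 CCGGAAG, at bases 257 to 263. Sdhd held 1 NRF1 match, at bases 172 to 181, and 1 CCGGAAG read on the other strand, at bases 205 to 211. No match of either motif overlapped a match of the other in these promoters. Of the 97 nuclear members 80 were matched to a promoter, 2 of them by a synonym. The NRF1 motif occurred in 21 of the 80 (26.25%) and in 7.17% of the promoters of 17492 coding genes. CCGGAAG occurred in 21 of the 80 (26.25%) and in 12.9% of those promoters. These are letter matches and say nothing of binding.

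A run of pseudogenes on chromosome 1 resembles part of the mitochondrial genome so closely that counts of several mitochondrially encoded members are uncertain. The stretch that holds the 1 base by which the copy of mt-Nd3 differs over 345 compared bases shows how little separates them. Both are GENCODE M21 gene models on GRCm38, and the capital marks the base that differs.
mt-Nd3, chrM:9459-9491, plus strand: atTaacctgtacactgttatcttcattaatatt
Gm28438, chr1:24613087-24613119, minus strand: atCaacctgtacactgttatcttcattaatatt
The difference is T3C, with positions counted from 1 at the first base of mt-Nd3. The copies Gm10222, Gm28437, Gm10925 and Gm28661 were identical over the aligned bases to nearly the whole of mt-Nd4l, mt-Co3, mt-Atp6 and mt-Co2. Gm28439 was identical to mt-Nd4 over 876 of its 1378 bases, and Gm29216 matched mt-Co1 at 99.8% over 483 of its 1545 bases. Copies on other chromosomes were less alike. On chromosome 2, Gm13340 and Gm13341 matched the whole of mt-Co1 and mt-Co2 at 97.6% and 95.9%. Gm13339, also there, matched mt-Nd2 at 96.7% over 510 of its 1038 bases. On chromosome 13, Gm4076 matched mt-Nd5 at 95.2% over 954 of its 1824 bases. The values given for these members below hold only for the reads assigned to the mitochondrial gene.

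The members took up different shares of the counts in each system. Mitochondrially encoded members held 0.457% ± 0.149 of the counts in KO spheroids and 0.699% ± 0.0420 in WT spheroids (SD, n = 4 each). These groups did not overlap, at 0.249% to 0.592% in KO and 0.642% to 0.740% in WT. They held 1.92% ± 0.488 in KO crypts and 1.88% ± 0.684 in WT crypts (SD, n = 6 each), and 10.4% ± 0.956 with shFgfr1op and 9.87% ± 0.590 with scramble (SD, n = 3 each). In crypts the share was higher in columns 4 to 6 than in columns 1 to 3 in both genotypes, 2.06% to 2.65% in KO columns 4 to 6 and 2.24% to 2.71% in WT columns 4 to 6, against 1.28% to 1.72% in KO columns 1 to 3 and 1.03% to 1.85% in WT columns 1 to 3. Nuclear members held 1.43% to 1.48% in KO spheroids and 1.44% to 1.64% in WT spheroids. They held 1.95% to 2.14% in KO crypt columns 4 to 6 and 2.82% to 2.90% in KO columns 1 to 3, against 2.88% to 3.53% in WT crypts. In Caco-2 the nuclear share was 0.758% ± 0.0134 with shFgfr1op and 0.823% ± 0.00924 with scramble, and the groups did not overlap.

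**Figure D1:**
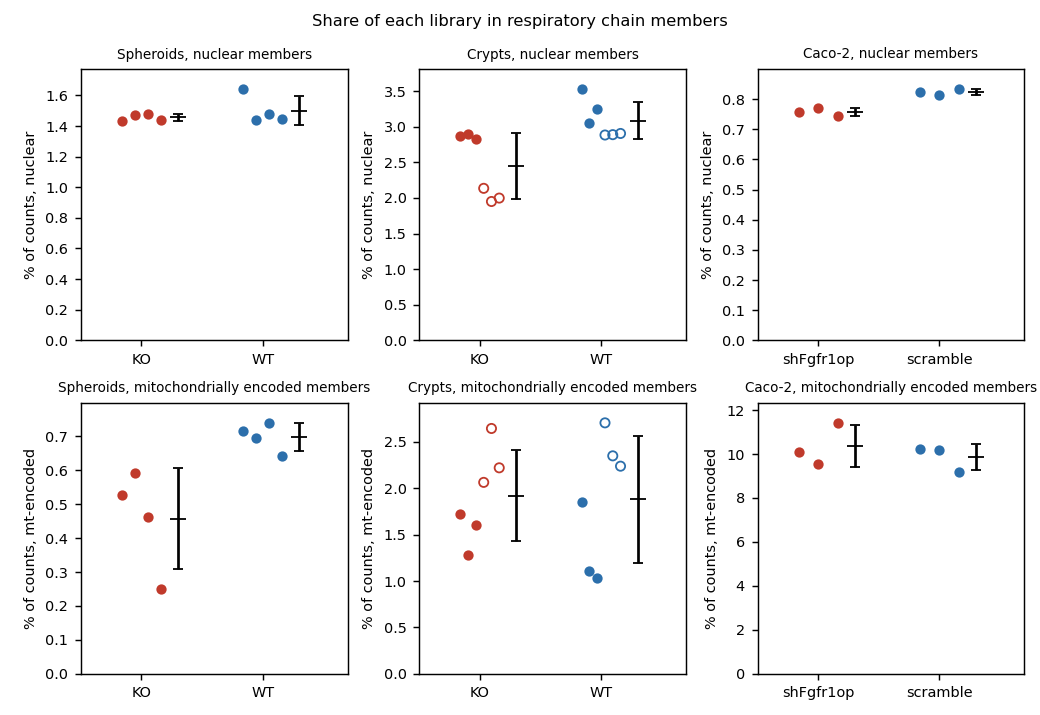
Share of each library's counts (percent, vertical axis from 0) in mitochondrially encoded and in nuclear encoded members, by system and group. Each circle is a library, open circles are crypt columns 4 to 6, and bars are mean ± SD. The nuclear share in KO crypt columns 4 to 6 (1.95% to 2.14%) lies below every WT crypt library (2.88% to 3.53%), while the mitochondrially encoded share overlaps between KO and WT crypts.

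In Caco-2 cells nuclear members of all 5 complexes were lower with shFgfr1op, and the mitochondrially encoded members were not called. Of 96 nuclear members tested, 42 were called lower and 4 higher, against 16.2% of 18905 genes called lower and 15.7% called higher. The median log2 fold change of the nuclear members was -0.12 and that of all genes tested was -0.01. The mitochondrially encoded members varied more between libraries. The median over members varied between libraries of a group with a pooled SD of 0.113 for them and 0.0161 for the nuclear members (log2 scale). A shift the size of the nuclear median could therefore go uncalled in the mitochondrially encoded members. DESeq2 called 34 lower and 4 higher, against 13.7% and 13.9% of the genes it tested. Of the 46 called by edgeR, 31 were called in all 6 fits that left out 1 library. In 55 of the 96 the 3 shFgfr1op libraries all lay below the 3 scramble libraries, which held for 21.5% of all genes tested. Here and in every comparison below, counts per library cannot tell fewer cells of a type from less RNA per cell. A call means an adjusted p below 0.05 by edgeR's quasi-likelihood test with Benjamini-Hochberg adjustment over all genes tested.

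Within complex I, 5 of 7 core subunits were called lower. NDUFV1, which binds NADH and FMN, had 323, 340 and 324 CPM with shFgfr1op and 382, 368 and 368 CPM with scramble (-0.18 ± 0.03 SE, adjusted p 8.59e-06). Every shFgfr1op library lay below every scramble library. NDUFS7 and NDUFS3, a further pair of core subunits, changed by -0.24 and -0.16. NDUFV2 was also called (-0.96 ± 0.26), but it was counted at only 0.761 to 1.19 CPM with shFgfr1op and 1.6 to 2.23 CPM with scramble. NDUFS1, the largest subunit of the electron-input arm, had 158, 154 and 159 CPM with shFgfr1op and 165, 161 and 168 CPM with scramble and was not called (adjusted p 0.129). Among the accessory subunits 8 of 30 were called lower, led by NDUFAB1, the mitochondrial acyl carrier protein (-0.26 ± 0.05), and 2 were called higher, NDUFB4 (0.13 ± 0.04) and NDUFA3 (0.15 ± 0.05). Of 8 assembly factors 3 were called lower, NDUFAF6, NDUFAF5 and NDUFAF7.

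All 4 subunits of complex II were called lower in Caco-2. SDHB, the iron-sulfur subunit, had 62.8, 67.4 and 60.9 CPM with shFgfr1op and 80.6, 77.3 and 80.6 CPM with scramble (-0.32 ± 0.04, adjusted p 1.12e-07). SDHD, a membrane anchor, had 45.6, 47.3 and 50.6 CPM with shFgfr1op and 57.4, 56.2 and 57.0 CPM with scramble (-0.25 ± 0.05, adjusted p 7.15e-05). SDHC, the other anchor, changed by -0.20 ± 0.04, and SDHA, the FAD-bearing catalytic subunit, by -0.17 ± 0.03. None of the 4 had overlapping groups. SDHAF4, an assembly factor for SDHA, was called higher, with 9.13, 8.10 and 9.54 CPM with shFgfr1op and 6.54, 5.4 and 7.05 CPM with scramble (0.50 ± 0.12, adjusted p 0.000625).

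Complex III held members that moved in opposite directions. UQCRFS1, the Rieske iron-sulfur protein, had 130, 132 and 127 CPM with shFgfr1op and 89.3, 86.6 and 88.7 CPM with scramble. Its log2 fold change of 0.55 ± 0.04 (adjusted p 1.72e-16) was the largest rise among the nuclear members called in Caco-2. UQCRC2, a core protein of the same complex, had 220, 212 and 206 CPM with shFgfr1op and 276, 282 and 284 CPM with scramble (-0.40 ± 0.03, adjusted p 5.48e-14). UQCRC1, UQCRH, UQCRB and UQCR11 were also called lower, at -0.23, -0.27, -0.20 and -0.20. The difference between UQCRFS1 and the other 5 called members was therefore one of sign, with no overlap between groups in any of the 6 genes.

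Of complex IV, 7 of 15 nuclear members were called lower and none higher. COX4I1, the regulatory subunit that binds adenine nucleotides, had 347, 345 and 336 CPM with shFgfr1op and 411, 390 and 410 CPM with scramble (-0.24 ± 0.03, adjusted p 2.89e-08). COX5A and COX5B, other nuclear subunits of the enzyme, changed by -0.25 and -0.20. Of ATP synthase, 10 of 19 nuclear members were called lower, and all 19 had a log2 fold change below 0. ATP5F1A, the alpha subunit of the catalytic head, had 303, 310 and 290 CPM with shFgfr1op and 388, 389 and 386 CPM with scramble (-0.36 ± 0.03, adjusted p 2.62e-13). ATP5F1B, the beta subunit, had 590, 604 and 571 CPM with shFgfr1op and 725, 717 and 711 CPM with scramble (-0.29 ± 0.03, adjusted p 4.02e-11). ATP5MC1, 1 of the genes for the proton-carrying c ring, had 109, 116 and 120 CPM with shFgfr1op and 142, 144 and 147 CPM with scramble (-0.32 ± 0.04, adjusted p 1.32e-09). In these 4 genes every shFgfr1op library was the lower.

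The mitochondrially encoded members of Caco-2 stayed within the spread between libraries. None of the 13 was called by edgeR, none had an unadjusted p below 0.05 (0 of 13) and DESeq2 called 0, and their log2 fold changes ran from -0.07 to 0.12 with a median of 0.03. MT-CO1, the catalytic core of complex IV, had 16339, 15847 and 19273 CPM with shFgfr1op and 17155, 17216 and 15129 CPM with scramble (0.06 ± 0.10, adjusted p 0.759). MT-CYB, the cytochrome b of complex III, had 6365, 6052 and 7137 CPM with shFgfr1op and 6468, 6356 and 5674 CPM with scramble (0.08 ± 0.09, adjusted p 0.593). In both the groups overlapped, with shFgfr1op library 3 the highest and scramble library 3 the lowest. MT-ND1, a membrane-arm subunit of complex I, differed by 0.08 ± 0.10 and MT-ATP6, the subunit a of ATP synthase, by less than 0.01 in size (adjusted p 0.639 and 0.997). Without shFgfr1op replicate 2, 1 of the 13 was called higher, and without scramble replicate 3, 1 was called lower. Cell type markers moved in the same libraries. Summed enterocyte markers were 2657 to 2934 CPM with shFgfr1op and 3867 to 4182 CPM with scramble (9 lower and 1 higher of 12 tested), and summed stem cell markers were 474 to 490 CPM with shFgfr1op and 367 to 375 CPM with scramble (7 higher of 9). Goblet cell markers had 3 lower of 4, Paneth and tuft cell markers 1 lower of 2 each, stromal markers 3 lower and 1 higher of 6, dissociation genes 5 lower and 1 higher of 12, and enteroendocrine and immune markers no call of 1 and of 4. Their part in the result was not tested.

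**Figure D2:**
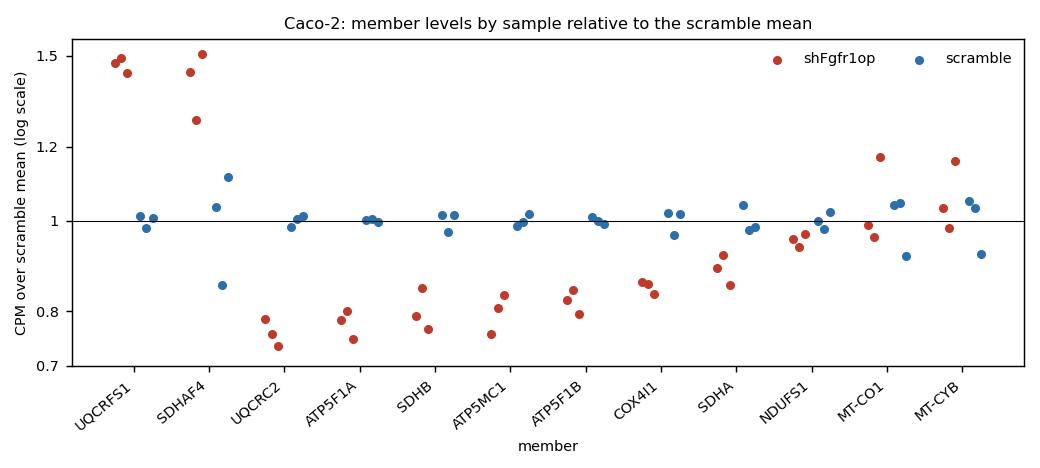
CPM of 12 members in each Caco-2 library divided by the scramble mean of that member (log axis, 1 = scramble mean), with shFgfr1op to the left of scramble. Each point is a library. UQCRFS1 (130, 132 and 127 CPM with shFgfr1op) and SDHAF4 lie above the scramble libraries, UQCRC2, ATP5F1A and SDHB lie below them, and MT-CO1 and MT-CYB overlap with them.

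In crypts nuclear members were lower in KO, with the lowest class median in complex II, while the mitochondrially encoded members were not called. Of 91 nuclear members tested over all 12 libraries, 18 were called lower and 1 higher, against 10.5% of 16413 genes called lower and 14.0% called higher. The median log2 fold change was -0.39 for the nuclear members and 0.05 for all genes tested, and 80 of the 91 nuclear members lay below 0. The median over members varied between libraries of a group with a pooled SD of 0.478 for mitochondrially encoded and 0.325 for nuclear members (log2 scale). A shift the size of the nuclear median could therefore go uncalled in the mitochondrially encoded members. In 7 of the 91 nuclear members the 6 KO libraries all lay below the 6 WT libraries (5.71% of all genes tested): Ndufaf1, Ndufs1, Ndufv2, Sdha, Sdhb, Uqcrc2 and Cox7a2l. The counts depended on single libraries: 33 were called lower without KO column 1, 30 without KO column 3, and 9 without KO column 4, 5 or 6. The 9 called whichever library was left out were Ndufa9, Ndufs1, Sdha, Sdhb, Sdhc, Sdhd, Uqcrc2, Cox7a2l and Atp5c1.

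All 4 subunits of complex II were called lower in KO crypts, with a median log2 fold change of -0.79. Sdha had 637, 1047, 1050, 770, 648 and 646 CPM in KO columns 1 to 6, with a median of 709 CPM, and 1525, 1346, 1323, 1453, 1920 and 1494 CPM in WT columns 1 to 6, with a median of 1474 CPM. Every KO library lay below every WT library, KO column 1 among the lowest (-0.92 ± 0.17, adjusted p 0.00299). Sdhb had 663, 660, 730, 372, 300 and 324 CPM in KO columns and 1274, 787, 911, 847, 1062 and 802 CPM in WT columns (-0.90 ± 0.24, adjusted p 0.0156). Its groups did not overlap either, and KO columns 4 to 6 were the 3 lowest of the 12. Sdhc ran from 243 to 450 CPM in KO (median 335) and from 442 to 667 CPM in WT (median 497), and Sdhd from 449 to 880 CPM in KO (median 623) and from 840 to 1338 CPM in WT (median 955). For both, the highest KO libraries reached into the WT range (-0.67 ± 0.18, adjusted p 0.0170, and -0.67 ± 0.19, adjusted p 0.0196). Of the 4 assembly factors of complex II, 0 were called by edgeR and 1 had an unadjusted p below 0.05.

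Of complex I, 2 of 7 core and 4 of 29 accessory subunits (13.8%) were called lower, against 10.5% of all genes. Ndufs1 ran from 151 to 243 CPM in KO (median 167) and from 270 to 375 CPM in WT (median 296), without overlap (-0.72 ± 0.15, adjusted p 0.00554). Ndufv2, an iron-sulfur subunit of the NADH-binding end, ran from 126 to 299 CPM in KO (median 201) and from 307 to 422 CPM in WT (median 333), also without overlap (-0.75 ± 0.22, adjusted p 0.0266). Ndufb10, an accessory subunit of the membrane arm, ran from 104 to 309 CPM in KO and from 303 to 527 CPM in WT (-0.90 ± 0.28, adjusted p 0.0322). Its highest KO library, column 3, only just exceeded the lowest WT library. Ndufa9 and Ndufv3, further accessory subunits, changed by -0.73 and -0.78. Ndufv1 was not called (-0.30 ± 0.14, adjusted p 0.120). Of the 8 assembly factors Ndufaf7 (-0.43) and Ndufaf1 (-0.33) were called lower and Ndufaf8 higher, at 23.3 to 33.9 CPM in KO, against 11.2 to 23.7 CPM in WT (0.57 ± 0.19, adjusted p 0.038). Over the 12 fits that each left out 1 library, the call held in 8 for Ndufv2 and Ndufv3, in 6 for Ndufb10, in 7 for Ndufaf7 and in 3 for Ndufaf1 and Ndufaf8.

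Of the nuclear members of complexes III, IV and V, 1 of 8 (12.5%), 1 of 14 (7.14%) and 4 of 17 (23.5%) were called lower. The share over all genes was 10.5%, so complex III was close to it and complex IV under it. Uqcrc2 of complex III ran from 376 to 676 CPM in KO (median 502) and from 717 to 1050 CPM in WT (median 776), without overlap (-0.74 ± 0.17, adjusted p 0.0083), and its partner Uqcrc1 was not called (-0.16 ± 0.15, adjusted p 0.473). Cox7a2l, which joins complexes III and IV into supercomplexes, was the 1 member of 14 called in complex IV, with 155 to 208 CPM in KO, against 224 to 327 CPM in WT (-0.50 ± 0.12, adjusted p 0.0119). Cox4i1 was not called (-0.38 ± 0.16, adjusted p 0.100). The 4 called in ATP synthase were Atp5a1, the alpha subunit (-0.38 ± 0.12), Atp5c1, the gamma subunit of the central stalk (-0.71 ± 0.20), Atp5o, of the stalk that holds the head (-0.72 ± 0.23), and Atp5f1, of the same stalk (-0.54 ± 0.16). Atp5c1 had 945, 947, 1120, 659, 551 and 541 CPM in KO columns 1 to 6 and 1665, 1078, 1271, 1171, 1456 and 1174 CPM in WT columns, so that KO column 3 alone reached above the lowest WT library. Atp5o, Atp5f1, Atp5c1 and Cox7a2l have the near-identical pseudogenes Gm5436, Gm12231, Gm8722 and Gm6969, which aligned with 76.7%, 43.4%, 36.1% and 17.8% of the transcript. Over the 12 libraries Atp5o averaged 57749 counts and Gm5436 averaged 2236, and Atp5f1 averaged 60979 counts and Gm12231 averaged 1673. Ndufaf7 shares a short stretch with other genes, and Ndufs1 and Uqcrc2 share exon sequence with Ino80dos and Pdzd9, so their counts could be split or shared. The 4 complex II subunits, Ndufv2, Ndufb10 and Ndufv3 have neither.

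**Figure D3:**
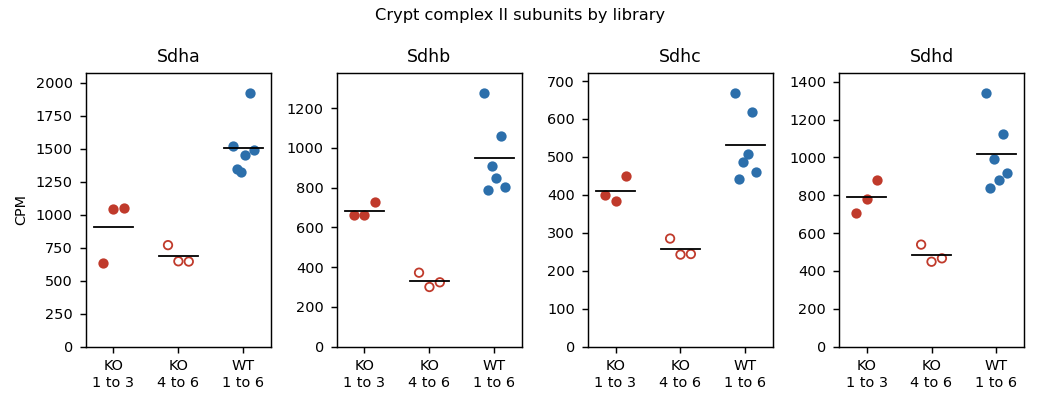
CPM of the 4 complex II subunits in each crypt library (vertical axis from 0), in the order KO columns 1 to 3, KO columns 4 to 6 (open circles) and WT, with a line at each mean. KO columns 4 to 6 are the lowest libraries for Sdhb (300 to 372 CPM) against 787 to 1274 CPM in WT, and for Sdha all 6 KO libraries lie at 1050 CPM or below.

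The size of these differences depended on which KO columns were compared. Among columns 1 to 3, 0 of 92 nuclear members were called by edgeR (7 with an unadjusted p below 0.05), against 0.677% of all genes. Their median was -0.22, 78 of them lay below 0, and the complex II subunits had a median of -0.48. Among columns 4 to 6, 65 of 91 were called lower and 1 higher, against 21.4% of all genes called lower and 20.0% called higher, with a median of -0.68. There 6 of 7 core, 21 of 29 accessory, 4 of 4 complex II, 6 of 8 complex III, 10 of 14 complex IV and 13 of 17 ATP synthase members were called lower. Sdha changed by -1.27, Sdhb by -1.48, Ndufv2 by -1.37 and Ndufb10 by -1.58 in that comparison. With KO columns 1 to 3 set against all 6 WT libraries, 1 of 92 was called lower, Sdha (-0.73 ± 0.20, adjusted p 0.0461), against 2.74% of all genes, and the median was -0.09. With the range of the column number as a term over all 12 libraries, 50 were called lower (14.3% of all genes), and with limma voom and quality weights 61 were (21.8%).

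The change in columns 4 to 6 was also tested against that in columns 1 to 3. Of 91 nuclear members 5 had a lower log2 fold change in columns 4 to 6 at an adjusted p below 0.05, against 6.0% of all genes. The number of calls therefore did not exceed the background here. Those called were Ndufb10 (difference -1.05), Ndufv2 (-0.99), Sdhb (-0.91), and the isoforms Cox6b2 (-1.43) and Cox7a1 (-3.03). The median difference of the nuclear members was -0.47, against -0.04 over all genes tested, and 82 of the 91 lay below 0. By edgeR 32 of the 91 had an unadjusted p below 0.05, as did 3952 of 16413 genes. Cox7a1, a complex IV isoform best known from heart and skeletal muscle, had 54.1, 26.7, 41.1, 3.90, 2.51 and 2.71 CPM in KO columns 1 to 6 and 123, 49.7, 92.0, 39.6, 73.2 and 49.3 CPM in WT columns. KO columns 4 to 6 were far below every other library for Cox7a1 (-4.18 ± 0.28 in columns 4 to 6, edgeR adjusted p 8.69e-06), whereas over all 12 libraries it was not called (-1.70 ± 0.75, adjusted p 0.119).

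Markers of other cells and of stress moved in the same crypt libraries. Summed enterocyte markers were 5808 to 11693 CPM in KO columns 4 to 6 and 22165 to 39526 CPM in KO columns 1 to 3, against 20446 to 50218 CPM in WT, and 3 of 15 were called lower over all 12 libraries and 11 of 15 within columns 4 to 6. Summed stem cell markers were 217 to 290 CPM in KO columns 4 to 6 and 812 to 1330 CPM in KO columns 1 to 3, against 1121 to 2507 CPM in WT, with 0 of 10 called by edgeR over all 12 libraries and 7 of 10 called lower within columns 4 to 6. Paneth cell markers were 7261 to 11650 CPM in KO columns 4 to 6 and 34961 to 48638 CPM in KO columns 1 to 3, against 32269 to 79755 CPM in WT, with 0 of 7 called over all 12 libraries and 6 of 7 called lower within columns 4 to 6. Goblet, enteroendocrine and tuft cell markers had 1 higher of 7, 0 of 7, and 3 lower of 5 called over all 12 libraries, and 3 lower and 1 higher of 7, 3 lower of 7, and 4 lower of 5 within columns 4 to 6. Immune cell markers summed to 146 to 323 CPM in KO, against 274 to 511 CPM in WT, and stromal markers to 11.5 to 69.3 CPM in KO, against 10.6 to 50.4 CPM in WT. Over all 12 libraries 1 of 12 immune markers was called in each direction and 0 of 10 stromal markers were, and within columns 4 to 6 immune markers had 3 lower and 1 higher of 12 and stromal markers 1 in each direction of 11. Genes induced by tissue dissociation had 6 of 10 called higher (7 of 10 within columns 4 to 6) and summed to 148 to 384 CPM in KO, against 95.2 to 191 CPM in WT. Within columns 1 to 3 the single call among all these markers was 1 dissociation gene, higher. Their part in the results for the members was not tested.

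The mitochondrially encoded members of crypts had 0 of 13 called by edgeR and by DESeq2 and 0 with an unadjusted p below 0.05, with a median log2 fold change of -0.11. The sign of that median depended on the libraries and the method. It was 0.06 within columns 1 to 3 (9 of 13 above 0), -0.17 within columns 4 to 6 (12 of 13 below 0), -0.31 without KO columns 4 to 6 (13 of 13 below 0), and 0.12 with limma voom and quality weights over all 12 libraries (10 of 13 above 0). mt-Co1 had 4606, 3437, 4773, 5936, 7485 and 6434 CPM in KO columns 1 to 6 and 6151, 2992, 3188, 7439, 7489 and 6582 CPM in WT columns (-0.05 ± 0.26, adjusted p 0.903). mt-Nd1 had 2971, 2046, 2751, 3727, 4303 and 3385 CPM in KO columns and 3329, 1632, 1479, 4078, 3912 and 3326 CPM in WT columns (0.11 ± 0.26, adjusted p 0.784). For both genes WT columns 2 and 3 and KO column 2 were the lowest libraries, and the groups overlapped. mt-Cytb (-0.22 ± 0.26) and mt-Atp6 (0.02 ± 0.25) were not called. Within columns 4 to 6, 1 of 13 (7.69%) was called lower, under the 21.4% of all genes called lower there. It was mt-Nd4 (-0.47 ± 0.17, edgeR adjusted p 0.043), a complex I subunit with the partly identical copy Gm28439.

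In spheroids 0 of 93 nuclear members and 0 of 13 mitochondrially encoded members were called by edgeR, against 0.232% of 15915 genes. The nuclear members had a median log2 fold change of -0.02, 6 of the 93 had an unadjusted p below 0.05, and DESeq2 called 0 of them. Sdha had 392, 380, 400 and 386 CPM in KO, against 483, 418, 431 and 422 CPM in WT, and Ndufs1 had 79.6, 85.7, 78.7 and 80.6 CPM in KO, against 97.3, 90.0, 93.5 and 84.8 CPM in WT. Every KO library lay below every WT library for Sdha, and the groups overlapped for Ndufs1, but neither was called (both -0.17, adjusted p 0.278 and 0.262). Separation with KO lower held for 3 of the 93 nuclear members, under the 4.02% of all genes tested. Uqcrc2 differed by -0.22 ± 0.07 (adjusted p 0.215), Atp5a1 by -0.08 (adjusted p 0.615) and Cox4i1 by 0.07 (adjusted p 0.690).

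The mitochondrially encoded members of spheroids had 12 of 13 log2 fold changes below 0. Their median of -0.42 shrank most when KO library 4 was left out. mt-Co1 had 2522, 2512, 1726 and 1058 CPM in KO, against 3513, 3511, 3176 and 2906 CPM in WT (-0.75 ± 0.25, adjusted p 0.237). mt-Nd5, a membrane-arm subunit of complex I, had 430, 480, 455 and 250 CPM in KO, against 556, 563, 613 and 547 CPM in WT (-0.50 ± 0.18, adjusted p 0.253). Both genes were lower in every KO library than in any WT library, as were mt-Nd4 (-0.57 ± 0.21) and mt-Nd6 (-0.42 ± 0.17). In mt-Cytb the groups overlapped, at 579, 775, 679 and 341 CPM in KO, against 823, 691, 903 and 802 CPM in WT (-0.44 ± 0.22, adjusted p 0.404). KO library 4 was the lowest library for each of these 5 genes, and without it the median of the 13 was -0.23. In that fit 11 of 13 lay below 0 and 0 were called. By edgeR 5 of the 13 had an unadjusted p below 0.05 there, as did 1710 of 16226 genes. With limma voom and quality weights the median was -0.70 and 0 were called, while 9 of 13 had an unadjusted p below 0.05, as did 2850 of 15915 genes. Groups without overlap, KO lower, made up 4 of 13 members and 4.02% of all genes tested. In the main edgeR fit 4 of 13 had an unadjusted p below 0.05, against 14.6% of all genes tested. RNAs of these 13 genes are cut from long precursors, so their values need not be independent of each other. DESeq2 called mt-Co1 alone of the 13 (lower, adjusted p 0.0281), where it called 1.78% of 15002 genes lower. mt-Atp8 was the 1 member above 0 (0.62 ± 0.36, adjusted p 0.469), at 4.23 to 7.41 CPM in KO, against 1.57 to 6.35 CPM in WT. Of the cell type and dissociation lists, 1 gene was called in spheroids, the dissociation gene Jun, at 108 ± 16.9 CPM in KO, against 64.0 ± 6.24 CPM in WT. Summed dissociation genes were 1029 to 1228 CPM in KO, against 877 to 1034 CPM in WT, and summed stem cell markers were 1063 to 1198 CPM in KO, against 1110 to 1184 CPM in WT. List medians of the log2 fold change were 0.61 for Paneth, 0.50 for enteroendocrine, 0.26 for dissociation, 0.08 for immune and 0.05 for goblet cell lists. For tuft, stem, stromal and enterocyte lists they were 0.05, -0.01, -0.03 and -0.16. The part of these markers in the result was not tested. Both mitochondrial ribosomal RNAs, which come from the same precursors, were not called (-0.23 and -0.22).

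**Figure D4:**
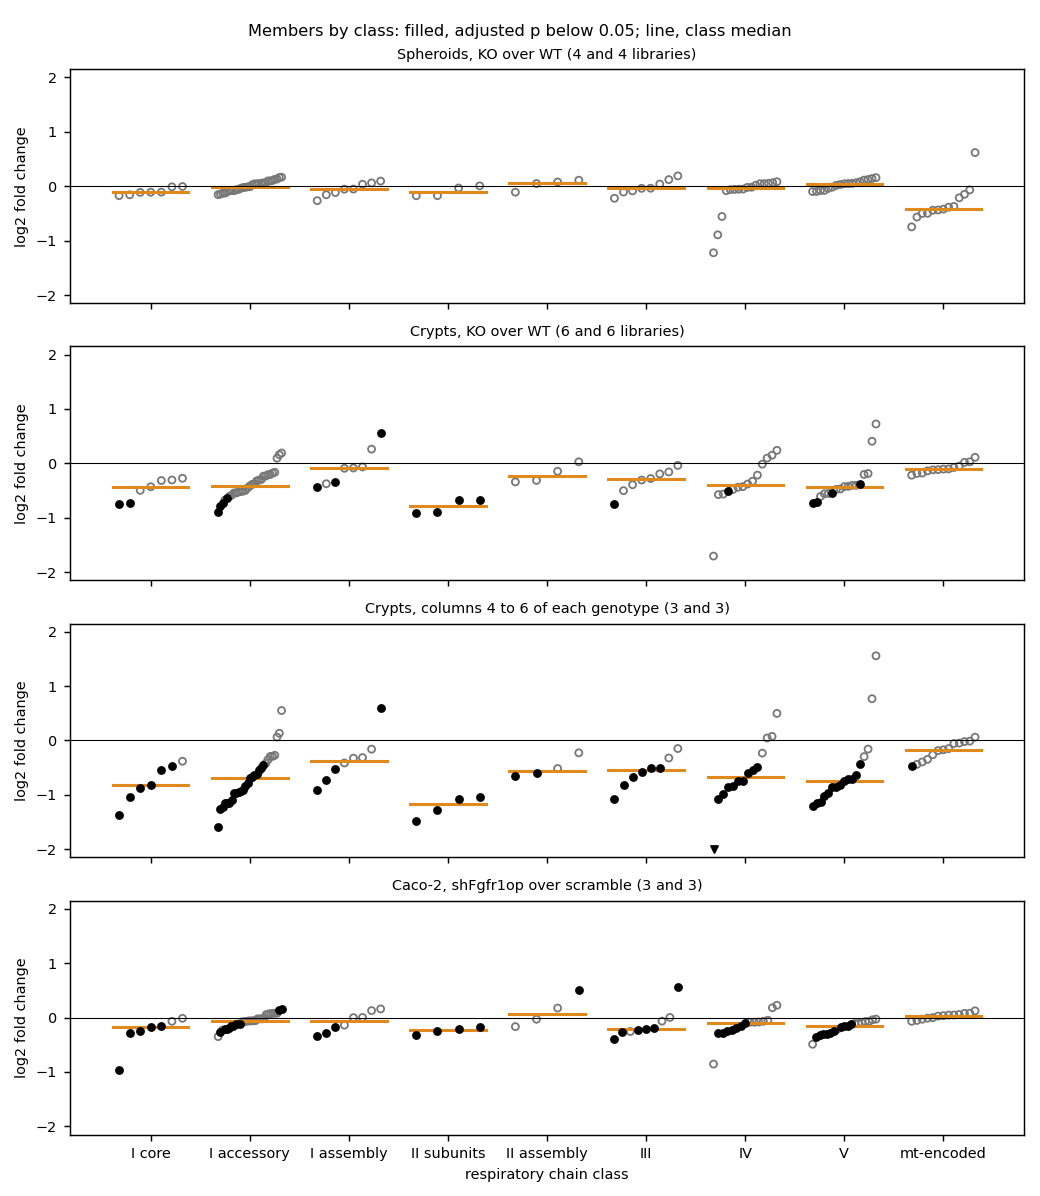
Log2 fold change (vertical axis) of every tested member by class, in 4 panels: spheroids KO against WT, crypts KO against WT, crypt columns 4 to 6, and Caco-2 shFgfr1op against scramble. Filled points passed an adjusted p of 0.05, the orange line is the class median, and a triangle marks a value beyond the axis (Cox7a1, -4.18). The complex II subunits are filled and below 0 in crypts and Caco-2, and no point is filled in spheroids.

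The KO effect in spheroids was set against that in crypts in a joint fit. Of 93 nuclear members 1 differed at an adjusted p below 0.05, Sdha, and 0 of 13 mitochondrially encoded members did (0 with an unadjusted p below 0.05), against 2.86% of 18485 genes. Sdha changed by -0.17 in spheroids and -0.92 in crypts, a difference of 0.79 ± 0.21 (edgeR adjusted p 0.0467). That call was lost without any 1 of the 8 spheroid libraries and without any 1 of crypt KO columns 4 to 6 or WT columns 1, 4, 5 and 6. The nuclear members had a median difference of 0.47, against -0.05 over all genes tested, and the mitochondrially encoded members a median of -0.27.

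Per length, the counts of the mitochondrially encoded members spanned a wide range within a library. In crypts mt-Cytb averaged 4557 CPM per kb in KO and 5296 CPM per kb in WT, and mt-Co1 3524 CPM per kb in KO and 3651 CPM per kb in WT. mt-Co2 averaged 204 CPM per kb in KO and 199.98 CPM per kb in WT, although it lies beside mt-Co1 in the mitochondrial genome. mt-Atp6 averaged 377 CPM per kb in KO and 372 CPM per kb in WT, and mt-Nd4l 17.8 CPM per kb in KO and 19.3 CPM per kb in WT. The members with low values include mt-Co2, mt-Atp6 and mt-Nd4l, each with a copy on chromosome 1 that is identical over the aligned bases. They also include mt-Atp8, for which no copy was found. The part of the copies in the low values was not tested. The copies were themselves counted: over the 12 crypt libraries mt-Atp6 averaged 17501 counts and its copy Gm10925 averaged 17023, and mt-Co3 averaged 26135 counts and Gm28437 averaged 24104. The handling of multi-mapped reads is not stated in the sources used here. With the counts of the copies added to their gene, the median log2 fold change of the 13 members was again -0.42 in spheroids and -0.11 in crypts, and 0 were called by edgeR in either.

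**Figure D5:**
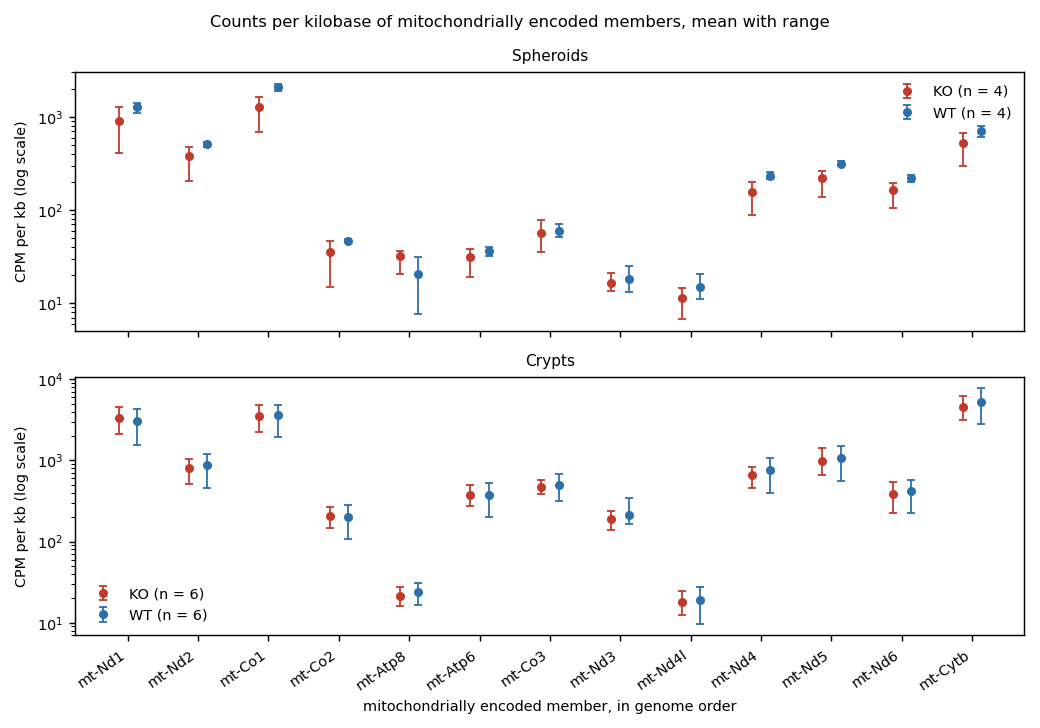
Mean CPM per kb (log axis) of the 13 mitochondrially encoded members in genome order, in spheroids and crypts, KO left of WT, with bars from the lowest to the highest library. mt-Co1, mt-Nd1 and mt-Cytb stand highest in crypts (means of 3092 to 5296 CPM per kb) and mt-Nd4l and mt-Atp8 lowest, and KO and WT ranges overlap for every member in crypts.

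The isoforms known from other tissues or from low oxygen differed widely in level. Cox7a1, described above, reached 123 CPM in WT crypts. Cox8b and Cox8c had 0 counts in every spheroid library. In crypts Cox4i2, Cox6a2 and Ndufa4l2 stayed below 0.3 CPM in every library and were not tested. In spheroids Ndufa4l2 ran from 0.301 to 1.75 CPM in KO and from 0.937 to 2.53 CPM in WT, and Cox6b2 from 16.4 to 22.1 CPM in KO and from 18.1 to 21.7 CPM in WT, neither of them called (adjusted p 0.511 and 0.840). COX4I2 and COX6A2 had 0 counts in every Caco-2 library.

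Fixed lists, mostly of other mitochondrial genes, were read from the same fits. The list of mitophagy and hypoxic genes also holds low-oxygen genes such as Vegfa, Slc2a1 and Ldha, and the members Ndufa4l2 and Cox4i2. In Caco-2 the counts below stand against 16.2% of all genes called lower and 15.7% called higher. The TCA cycle and pyruvate dehydrogenase list had 12 lower (50.0%) and 3 higher of 24, led by SUCLG1, a subunit of succinyl-CoA ligase, at 113 ± 0.456 CPM with shFgfr1op and 203 ± 4.95 CPM with scramble (-0.84 ± 0.04, edgeR adjusted p 4.78e-24). Respiratory chain genes outside the name rule had 8 lower and 6 higher of 47, close to the shares over all genes, among them CYC1, the cytochrome c1 of complex III (-0.33), lower, and COX17, a copper chaperone for complex IV (0.48), higher. Import, outer membrane and chaperone genes had 12 lower of 23 (52.2%), among them HSPD1, the mitochondrial chaperonin (-0.32), and VDAC1, the outer membrane channel (-0.29). Nuclear regulators had 4 lower and 3 higher of 12. The coactivator PPARGC1B had 22.5 ± 0.864 CPM with shFgfr1op and 37.9 ± 2.86 CPM with scramble (-0.76 ± 0.06, edgeR adjusted p 1.13e-13), and ESRRA, its nuclear receptor partner, changed by -0.29. Genes of mitochondrial DNA maintenance and transcription had 5 lower of 18 (POLG, POLRMT and TFAM among them), RNA processing genes 2 lower of 19 (10.5%, under the share over all genes), mitophagy and hypoxic genes 7 lower and 2 higher of 16, mitochondrial ribosome proteins 18 lower (23.1%) and 5 higher (6.41%) of 78, and the 2 ribosomal RNAs 0 called.

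In crypts the calls in these lists depended on KO columns 4 to 6. Within columns 1 to 3, 0 genes of any of the 9 lists were called by edgeR, against 0.677% of all genes. The counts over all 12 libraries stand against 10.5% of all genes called lower and 14.0% called higher, those within columns 4 to 6 against 21.4% and 20.0%, and those without KO columns 4 to 6 against 2.74% and 2.72%. The TCA cycle and pyruvate dehydrogenase list had 12 lower (48.0%) and 1 higher of 25 over all 12 libraries, with a median log2 fold change of -0.51. Within columns 4 to 6 it had 17 lower and 1 higher (median -0.75), without KO columns 4 to 6 it had 1 lower (median -0.28), and its median within columns 1 to 3 was -0.28. Idh3b, a subunit of isocitrate dehydrogenase, had 311 ± 54.2 CPM in KO, against 470 ± 32.5 CPM in WT (-0.59 ± 0.13, edgeR adjusted p 0.00618), and Dld, shared by pyruvate and oxoglutarate dehydrogenase, changed by -0.67. Respiratory chain genes outside the name rule had 10 lower of 46 (21.7%), led by Etfdh, which passes electrons from fatty acid oxidation to ubiquinone, at 112 ± 16.2 CPM in KO, against 217 ± 37.8 CPM in WT (edgeR adjusted p 0.0015). Within columns 4 to 6 that list had 17 lower and 1 higher, and without KO columns 4 to 6 it had 2 lower.

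Import, outer membrane and chaperone genes in crypts had 7 higher (29.2%) and 0 lower of 24, among them Slc25a4, an ADP/ATP carrier (1.24), and Hspa9, the chaperone that drives import (0.67). The list had 8 higher and 1 lower within columns 4 to 6 and 2 higher without KO columns 4 to 6, and its median was 0.27 over all 12 libraries and 0.29 within columns 1 to 3. Its summed level was lower in KO columns 4 to 6 than in any WT library, at 7398 to 8827 CPM in KO columns 4 to 6 and 9198 to 10900 CPM in KO columns 1 to 3, against 9136 to 12487 CPM in WT. Mitochondrial ribosome proteins had 10 higher (13.3%, close to the share over all genes) and 2 lower of 75 over all 12 libraries, whereas within columns 4 to 6 they had 11 higher and 15 lower of 76, and without KO columns 4 to 6 2 higher. Over all 12 libraries genes of mitochondrial DNA maintenance had 5 lower and 2 higher of 19 (Primpol -1.07), RNA processing genes 1 lower and 2 higher of 18 (Rexo2 1.64), nuclear regulators 2 higher of 13 (Hif1a 1.29 and Pprc1 0.45), mitophagy and hypoxic genes 4 higher of 13, and the 2 ribosomal RNAs 0 called. Within columns 4 to 6 these had 8 lower and 4 higher of 19, 3 lower and 2 higher of 18, 2 lower and 4 higher of 13, 2 lower and 4 higher of 14, and 0 of 2. Without KO columns 4 to 6 they had 1 lower of 19, 2 higher of 18, 1 lower of 13, 1 in each direction of 14, and 0 of 2.

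In spheroids 0 of the 234 genes tested in these 9 lists were called by edgeR, 30 had an unadjusted p below 0.05 (12.8%, against 14.6% of all genes), and DESeq2 called 2, against 3.85% of the genes it tested. They were Ppargc1a, a coactivator of mitochondrial genes, at 5.31 ± 1.04 CPM in KO, against 9.92 ± 2.22 CPM in WT, and Timm44, of the import motor, at 80.7 ± 1.33 CPM in KO, against 91.2 ± 1.47 CPM in WT (SD, n = 4 each).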

How the data were processed

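RNA was counted in 26 libraries in 3 tables of whole-number read counts per gene, deposited by the authors with no normalization. The submitters' processing notes name STAR, DESeq2 and the mouse build mm10 without versions. Strand and the treatment of reads that map to several places are not given in the sources used here, so reads of overlapping or near-identical genes may be shared between them. The labels give the mouse build for Caco-2 too, but that table holds human identifiers, so no human coordinates are printed. Entries that repeated an identifier with the same counts were removed (276, 276 and 116 in the spheroid, crypt and Caco-2 tables). Of the nuclear members 93, 91 and 96 passed the filter on low counts, and all 13 mitochondrially encoded ones did. The crypt columns were mapped to a genotype only.

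Each table was fitted on its own with edgeR 4.0.16 (R 4.3.3): filterByExpr, TMM, robust quasi-likelihood F tests, and Benjamini-Hochberg adjustment over all genes, with a call below 0.05. The spheroid and crypt tables were joined by identifier for the test of their difference. CPM uses TMM-scaled totals, and the SE is the log2 fold change divided by the square root of F. The target gene also had an exact two-sided permutation test on mean log2 CPM (p 0.0286 in spheroids, 0.00649 in crypts and 0.100 in Caco-2, the last the smallest that 3 against 3 allows). The procedure was tested on simulated data. Gene copies were found with blastn 2.17.0 at 95% identity or more over at least 150 bases of GENCODE M21 transcripts. Total counts ran from 51459939 to 63981065 in KO and 44152608 to 67630241 in WT spheroids, from 48068740 to 88869286 in KO and 49536700 to 103352863 in WT crypts, and from 37281821 to 43876634 with shFgfr1op and 37989227 to 50965004 with scramble. Replicates of a group differed by a chi-square of at least 3.98 per degree of freedom, so none was counted as a repeat of the same library. Such a difference cannot show that libraries came from separate cultures or animals.

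The members and gene lists were chosen with earlier results of these data known. The genes named are the mitochondrially encoded members, a core subunit of each complex, the 3 nuclear members of smallest p in each class, the tissue isoforms and the 3 genes of smallest p in each list, and the text gives a selection. A gene so chosen may be left unnamed here while the counts still include it. Alternative settings were size factors by RLE, no filter, a filter of 1 CPM, DESeq2 1.42.0, limma 3.58.1 voom with quality weights, the replicate number as a block, mitochondrially encoded genes dropped, and each library left out. Ranges of crypt columns, the crypt column number as a block, added nuclear copies and left-out libraries in the joint fit were added after seeing the data.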

Additional observations from a re-analysis of the deposited data

Results flagged for a closer look

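Single libraries stood apart from the rest of their group in 5 of the 88 groups of values examined. Chance alone marks about 1 in 20 such groups. WT spheroid library 1 was high for Sdhb, at 173.3 CPM where the other 3 had 141.6 to 145.1 CPM, and for Cox4i1, at 374.4 CPM where the others had 320.5 to 329.1 CPM. KO spheroid library 4 was low for mt-Atp8, at 4.227 CPM where the others had 6.87 to 7.415 CPM. WT crypt column 5 was high for Sdha, at 1920 CPM where the others had 1323 to 1525 CPM, and WT crypt column 1 was high for mt-Nd3, at 119.4 CPM where the others had 57.19 to 72.63 CPM. The effect of KO on Sdha differed between spheroids and crypts by 0.7947 on the log2 scale (-0.17 in spheroids and -0.92 in crypts), a difference past the threshold in the joint fit over all libraries that was lost without any 1 spheroid library.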

How the results depend on the processing

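No result changed direction with a call under any alternative run. In spheroids 0 nuclear and 0 mitochondrially encoded members were called under every alternative except DESeq2, which called 1 mitochondrially encoded member lower. Leaving out each library gave nuclear medians of -0.04 to 0.04 and mitochondrially encoded medians of -0.52 to -0.23, and voom gave -0.70 for the mitochondrially encoded members. In crypts 18 nuclear members were lower and 1 higher. The lower count was 0 (higher 0) in columns 1 to 3, 65 in columns 4 to 6, where 1 mitochondrially encoded member was also lower, 50 with the number range as a term, 61 with voom, and 1 (higher 0) without KO columns 4 to 6. With no filter 14 were lower and 0 higher. Leaving out each crypt library gave 9 to 33 lower (30 without KO column 3), 0 to 1 higher, nuclear medians of -0.53 to -0.31 and mitochondrially encoded medians of -0.26 to -0.02. The crypt mitochondrially encoded median was 0.12 with voom, 0.06 in columns 1 to 3 and -0.31 without KO columns 4 to 6, where the value over all 12 libraries was -0.11. In Caco-2 leaving out each library gave 32 to 40 nuclear members lower and 3 to 4 higher, with medians of -0.13 to -0.10, and 0 to 1 mitochondrially encoded members in each direction, with medians of -0.05 to 0.10. DESeq2 called 34 lower and 4 higher there. For the difference between spheroids and crypts, no filter gave 0 nuclear members, and leaving out each library gave 0 to 8 (2 without crypt KO column 2), with nuclear medians of 0.34 to 0.60 and mitochondrially encoded medians of -0.37 to -0.06. The causes were not tested.

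Replicates that share a number did not deviate together (correlations of -0.03 to 0.10 in spheroids, 0.00 to 0.04 in Caco-2 and, by column number, -0.07 to 0.11 in crypts). With the replicate block, spheroids had 71 genes called, against 37 without it, and 0 members in either set, and Caco-2 had 42 nuclear members lower and 4 higher. The crypt labels number the libraries within a day and the columns run from 1 to 6, so whether the column numbers pair the libraries was not resolved. A fit with the column number as a replicate block, added after seeing the data, called 25 nuclear members lower and 0 higher and 0 mitochondrially encoded members. Single members were followed through every alternative, 26 in crypts and 51 in Caco-2. A call was lost in 104 of 620 pairs of a member and an alternative in crypts, and in 56 of 659 in Caco-2. These members include core subunits that were not called in the main fit and had no call to lose. NDUFV2 and the isoforms near or below 1 CPM rest on few counts.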
